A study of Mus musculus with 4 samples.

Results

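Tight junction scaffolds and tricellular proteins were examined in the open chromatin of retinal endothelial cells, at 9 genes of the 21631 protein-coding genes of the RefSeq table on the autosomes and X. The genes were taken by name, and every listed peak that overlapped the gene body or the 10 kb on each side of it was counted. That stretch is called the locus here. A peak within 1 kb of either end of the gene is called a gene-end peak. The loci of the 9 genes held 17 and 22 peaks in the Zeb1 knockdown libraries and 3 and 12 peaks in the control libraries, for replicates 1 and 2 in each group. Merged over the libraries, these peaks formed 27 regions, out of 25263 in the genome.

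Open chromatin was measured by ATAC-seq, in which a transposase cuts accessible DNA and tags the ends for sequencing. The cells were mouse retinal endothelial cells isolated by FACS. The 2 Zeb1 knockdown libraries came from C57BL/6 mice whose genotype is labelled Zeb1 knockdown, with Zeb1-CKO in the sample titles. The 2 control libraries came from C57BL/6 mice labelled control. All 4 are titled P16, and 2000 sorted cells went into each. The labels used here name no Cre driver and leave it unsaid whether libraries of 1 group derive from different animals. The spread between them may therefore be technical.

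The tight junction seals the space between neighbouring cells of an epithelium or endothelium. Claudins and the tetraspan MARVEL proteins form its strands, the ZO scaffolds anchor the strands to actin, and cingulin and paracingulin sit on the inner face of the scaffold. Where the corners of neighbouring cells meet, angulins such as Ildr1 recruit tricellulin (Marveld2) to close the remaining gap. Retinal vessels rely on such junctions for the inner blood-retina barrier. The zinc-finger protein Zeb1 represses many epithelial genes in other settings and binds E2-box letters, CAGGTG or CAGGTA.

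Only peak lists were used here. The knockdown libraries held 13689 and 19886 peaks and the control libraries 7608 and 13672 peaks, or 16788 ± 4382 against 10640 ± 4288 (SD, n = 2 each). An exact two-sided permutation test returned p = 0.333. With 2 libraries against 2 no lower p is possible, so no single gene or region was tested. Read depth is unknown, and a missing peak may reflect few reads. At Zeb1 itself the locus held 2 and 3 peaks in the knockdown libraries and 0 and 1 in the controls, which does not check the genotype. Of 14 endothelial marker genes, 14 and 14 had a locus peak in the knockdown libraries and 10 and 14 in the controls. At gene ends the counts were 6 and 7 of the 14 in the knockdown libraries and 3 and 6 in the controls. Cdh5, Cldn5 and Tie1 were listed there in all 4 libraries, and 7 of the 14, Pecam1 among them, in none.

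The promoters at which the lists differed, and comparison promoters, are given first as RefSeq sequence of GRCm38.p6, the patch release of the mm10 assembly. Each runs 5′ to 3′ on the strand of the gene, from 250 bases before the annotated start through the first 30 bases from it, and capitals mark CAGGTG or CAGGTA on either strand. At F11r, Ildr1 and Tjp1 the start lay in a peak of both knockdown libraries and of neither control library. Ocln, printed at the inner of its annotated starts, is shown because it holds the same letters and its region was also listed in a control library. The inner start itself lay in a peak of knockdown replicate 1 only. Cgnl1 is shown because its start lay in a peak in all 4 libraries.
F11r, chr1:171437311-171437590, plus strand: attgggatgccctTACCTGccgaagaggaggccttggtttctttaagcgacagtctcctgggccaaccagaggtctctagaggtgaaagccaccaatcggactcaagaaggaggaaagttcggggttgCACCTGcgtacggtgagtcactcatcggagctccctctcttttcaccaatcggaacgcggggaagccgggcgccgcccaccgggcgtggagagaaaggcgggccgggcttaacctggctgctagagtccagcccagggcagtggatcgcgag
Ildr1, chr16:36693728-36694007, plus strand: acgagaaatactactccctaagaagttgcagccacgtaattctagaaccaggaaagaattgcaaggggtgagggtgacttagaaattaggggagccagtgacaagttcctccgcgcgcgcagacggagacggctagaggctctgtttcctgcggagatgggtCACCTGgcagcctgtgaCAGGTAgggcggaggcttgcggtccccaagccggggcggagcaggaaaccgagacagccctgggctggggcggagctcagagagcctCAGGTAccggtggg
Tjp1, chr7:65371215-65371494, minus strand: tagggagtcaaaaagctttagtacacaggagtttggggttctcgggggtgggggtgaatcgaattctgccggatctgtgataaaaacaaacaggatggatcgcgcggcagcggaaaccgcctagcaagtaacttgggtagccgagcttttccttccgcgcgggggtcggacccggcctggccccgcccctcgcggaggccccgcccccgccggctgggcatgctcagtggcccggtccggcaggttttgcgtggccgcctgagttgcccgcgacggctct
Ocln, chr13:100552469-100552748, minus strand: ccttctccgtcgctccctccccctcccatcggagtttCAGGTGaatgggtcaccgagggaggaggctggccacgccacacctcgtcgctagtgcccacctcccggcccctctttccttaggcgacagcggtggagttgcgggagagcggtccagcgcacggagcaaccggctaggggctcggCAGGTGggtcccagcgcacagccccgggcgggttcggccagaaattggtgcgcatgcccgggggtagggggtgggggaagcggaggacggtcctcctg
Cgnl1, chr9:71771573-71771852, minus strand: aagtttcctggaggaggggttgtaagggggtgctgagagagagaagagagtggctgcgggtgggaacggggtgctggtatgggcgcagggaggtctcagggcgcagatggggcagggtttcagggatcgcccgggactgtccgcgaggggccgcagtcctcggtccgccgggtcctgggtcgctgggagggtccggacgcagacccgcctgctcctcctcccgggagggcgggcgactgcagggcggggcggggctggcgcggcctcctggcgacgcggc

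Of the regions listed in both knockdown libraries and no control library, those of the junctional adhesion molecule and the angulin ranked highest. F11r (gene ID 16456, chr1:171437561-171464593) encodes JAM-A, an immunoglobulin-type adhesion molecule of the tight junction. Its locus held 1 and 1 peaks in the knockdown libraries and 0 and 0 in the controls. In knockdown replicate 1 the F11r peak ran from 171437294 to 171437675 on chromosome 1 (mm10), and in knockdown replicate 2 from 171437284 to 171437664. It ranked 10.6% and 22.0% from the top of its list by the deposited −log10 p. Both peaks covered all 300 bases of the F11r promoter entry, the annotated start at 171437561 included. The region also overlapped Gm26641, a long non-coding RNA gene.

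Ildr1 (gene ID 106347, chr16:36693978-36726804) encodes angulin-2, which recruits tricellulin to tricellular contacts. Its locus also held 1 and 1 peaks in the knockdown libraries and 0 and 0 in the controls. The Ildr1 peaks ran from 36693795 to 36694235 and from 36693758 to 36694372 on chromosome 16, over the annotated start at 36693978. They ranked 26.2% and 29.6% from the top of their lists. No other peak lay within the gene or its 10 kb flanks in any library.

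The E2-box letters stood in both of these promoters and inside the peaks. Positions take the start base as 1, with no position 0. F11r held CAGGTG at position -122 and CAGGTA at position -237. Both stood on the opposite strand, so that the printed strand reads CACCTG and TACCTG. Ildr1 held 4 matches, CAGGTG at position -88 and CAGGTA at positions -71, 17 and 39, the last of these beyond the printed stretch. All 6 matches lay within the peaks of both knockdown libraries. Of 32851 promoter entries, 29.5% held 1 or more matches to CAGGTG or CAGGTA on either strand, 5.81% held 2 or more and 0.186% held 4 or more. F11r also held the AP-1 letters TGANTCA at position -109, as did 7.81% of entries. Of the 8 genes with an entry, 5 held CAGGTG or CAGGTA in any entry, namely F11r, Ildr1, Ocln, Marveld2 and Tjp3. By the same count per gene, the share was 31.2% of all 17274 protein-coding genes with an entry. Tjp3 held CAGGTG in both of its entries with no peak over either start in any library, and Marveld2 held it with a start peak in knockdown replicate 2 only. Tjp1, whose start was in both knockdown lists and neither control list, held no match. These matches describe letters and not binding.

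Of the MARVEL proteins, Marveld3 alone had a gene-end peak in both knockdown lists and neither control list. Marveld3 (gene ID 73608, chr8:109947909-109962205) is a tetraspan protein of the tight junction. Its locus held 2 and 2 peaks in the knockdown libraries and 0 and 0 in the controls. At its high-coordinate end, on chromosome 8, the peaks ran from 109961971 to 109962263 and from 109962098 to 109962302. They were weaker than those at F11r and Ildr1 within their own lists, at 76.3% and 57.4% from the top. The remaining peaks of the Marveld3 locus were each listed in a single knockdown library, and that of knockdown replicate 1 lay inside the neighbouring gene Phlpp2.

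Ocln and Marveld2, which lie 43.2 kb apart on chromosome 13, had peaks in both groups. Ocln (gene ID 18260, chr13:100496504-100552718) encodes occludin, an integral membrane protein of the tight junction strands. A peak lay over the outer annotated start of Ocln in both knockdown libraries and in control replicate 2, at 60.6%, 38.4% and 56.7% from the top. None was listed in control replicate 1. The Ocln locus held 2 and 2 peaks in the knockdown libraries and 0 and 1 in the controls. The inner promoter entry of Ocln held CAGGTG at positions -213 and -68, the first of which lay inside the peak of control replicate 2 as well. Marveld2 (gene ID 218518, chr13:100595957-100616971) encodes tricellulin. A region within the gene, from 100600396 to 100600826, was held by all 4 libraries, and another, 1537 bp beyond the low-coordinate end, by all but control replicate 1. A peak over the start of Marveld2 was listed in knockdown replicate 2 only, 138 bp from the next gene, Rad17. The Marveld2 locus held 2 and 3 peaks in the knockdown libraries and 1 and 2 in the controls.

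**Figure D1:**
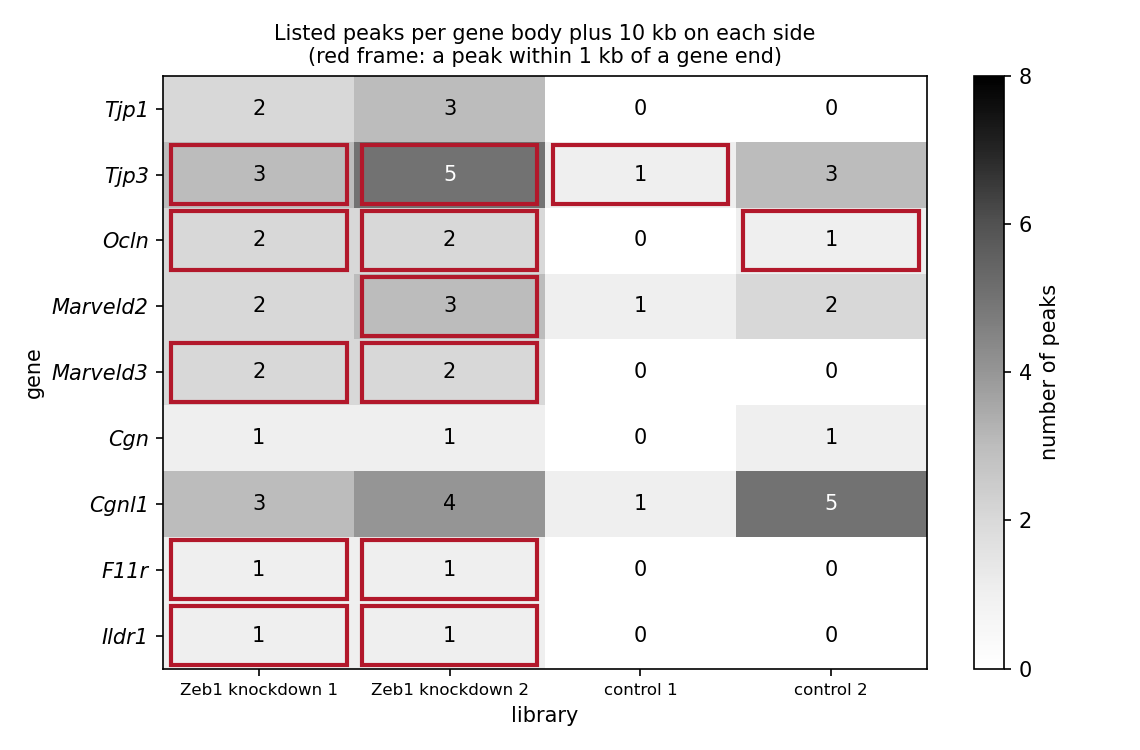
Number of listed peaks (grey scale and digits) in the gene body plus 10 kb on each side, for the 9 genes (rows) in each library (columns). Red frames mark a peak within 1 kb of a gene end, and Tjp1, Marveld3, F11r and Ildr1 are the rows with peaks in both knockdown libraries and 0 in both controls.

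Among the scaffolds, Tjp1 had peaks in both knockdown libraries and none in the controls, although its locus is 251.7 kb long. Tjp1 (gene ID 21872, chr7:65296165-65527850) encodes ZO-1, the scaffold that ties claudins, occludin and JAM-A to actin. Its locus held 2 and 3 peaks in the knockdown libraries and 0 and 0 in the controls. All of them lay inside the gene and none within 1 kb of an end of the gene. The annotated start in the promoter table, at 65371244 on chromosome 7, lies 156.6 kb inside the high-coordinate end. The peaks over this start ran from 65370845 to 65371471 and from 65370828 to 65371324, and ranked 65.9% and 81.9% from the top, low in both lists. The other shared region of Tjp1, from 65410564 to 65411120, stood 39.6 kb upstream of that start and ranked 80.1% and 34.1% from the top. The Tjp1 promoter held 0 matches to CAGGTG or CAGGTA and 31 CpG, more than 89.4% of entries.

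Tjp3 (gene ID 27375, chr10:81273188-81291581) encodes ZO-3, a scaffold known mainly from epithelia, and its peaks mostly overlapped its neighbours. The Tjp3 locus held 3 and 5 peaks in the knockdown libraries and 1 and 3 in the controls. No peak covered either annotated start of Tjp3 in any library. The strongest region, from 81292536 to 81293254 on chromosome 10, was held by all 4 libraries at 6.25% to 15.3% from the top, and covered the end of the adjacent gene Pip5k1c, which begins 1254 bp beyond Tjp3. In control replicate 2 this peak missed the gene-end window by 10 bp, and in control replicate 1 it reached into it. The gene-end difference between these lists at Tjp3 thereby turned on the window edge. The Tjp3 locus also held 2 regions listed in both knockdown libraries and neither control, and these overlapped Apba3 and Mrpl54 in one case and Pip5k1c in the other.

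Cgn and Cgnl1, the cingulin pair, had peaks at their starts in control libraries too. Cgn (gene ID 70737, chr3:94760069-94787725) encodes cingulin, a plaque protein that binds ZO-1. Its single region, over the annotated start at 94786482 on chromosome 3, was listed in both knockdown libraries and control replicate 2 at 34.7%, 21.1% and 42.0% from the top. That start lies 1243 bp inside the end of the gene, so the peak was no gene-end peak. The peaks ended at 94786703 and 94786719 in the knockdown libraries and at 94786700 in control replicate 2. All of them fell just short of the gene-end window. The Cgn promoter held AACNGGTT, letters known for grainyhead-like factors, at position -29, as did 2.09% of entries. Cgnl1 (gene ID 68178, chr9:71626507-71809300) encodes paracingulin, which is found at tight and adherens junctions. Its locus held 3 and 4 peaks in the knockdown libraries and 1 and 5 in the controls, and control replicate 2 had the most. The peak over the Cgnl1 start was listed in all 4 libraries, at 82.6% to 94.8% from the top. A pair of regions elsewhere in the gene, one downstream and the other upstream of that start, was listed in both knockdown libraries and control replicate 2, and their peaks stood at 16.1% to 34.4% from the top in the knockdown lists and 63.6% and 83.1% in the control list. A rank is a place within its own list and does not measure a change between libraries.

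**Figure D2:**
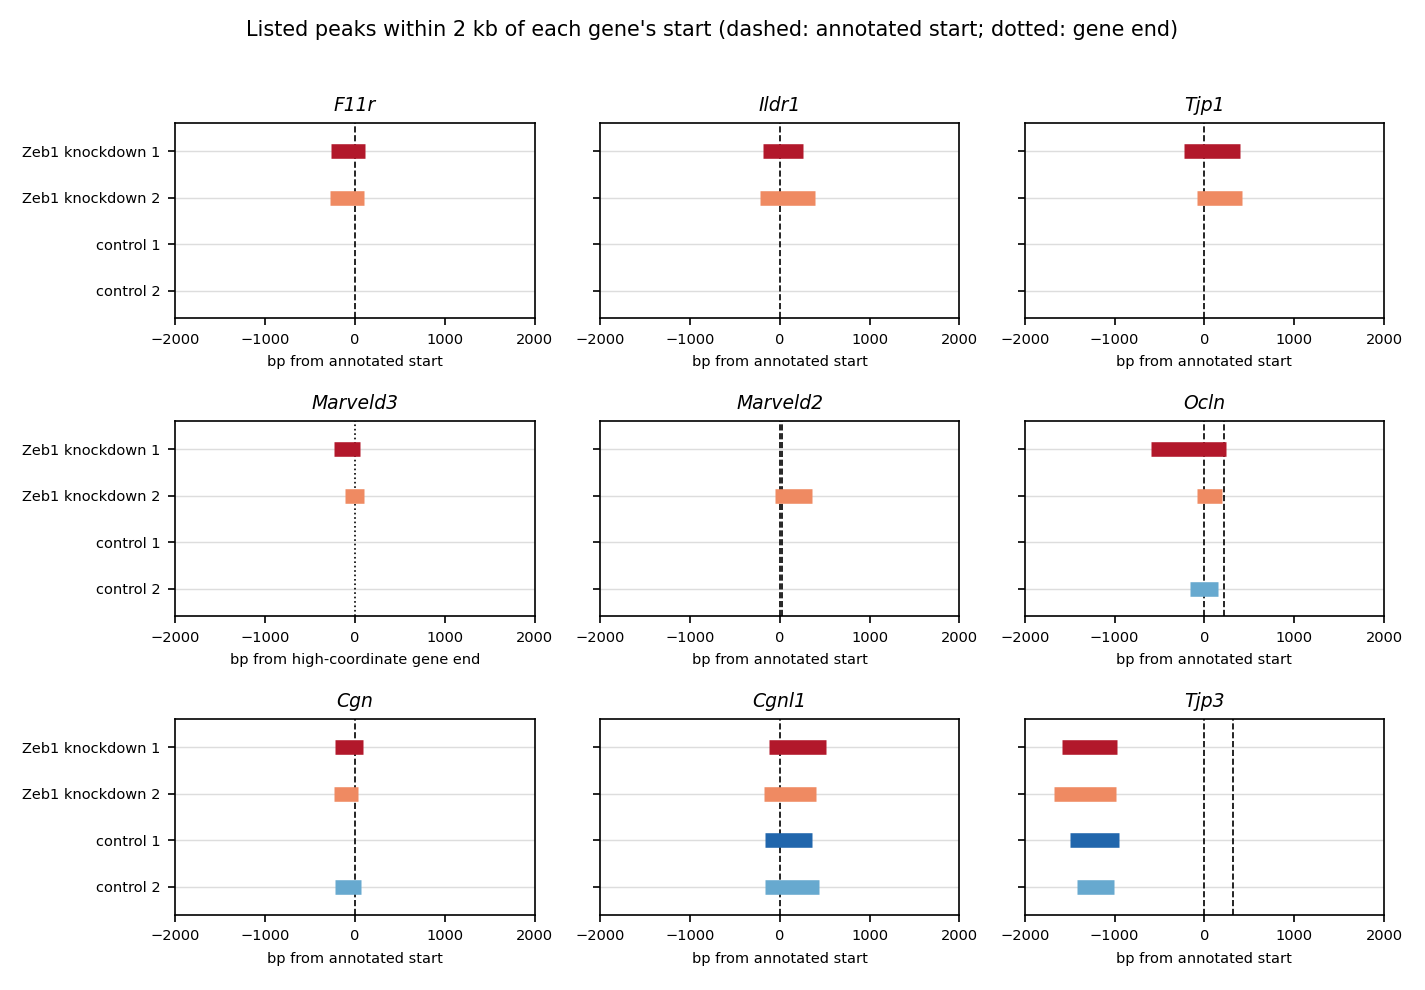
Listed peaks (bars) within 2 kb of the annotated start of each gene, or of the high-coordinate gene end for Marveld3, in the 4 libraries from top to bottom (x axis in bp, positive values downstream of the start; for Marveld3, positive values run to higher coordinates; genes with a pair of starts are centred on the outer one). F11r, Ildr1, Tjp1 and Marveld3 show bars in the knockdown rows only, Cgnl1 in all 4, and Tjp3 none over its dashed starts.

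Counted over the 9 genes, 3 had a gene-end peak in both knockdown libraries and neither control library (Marveld3, F11r and Ildr1), beside 3.8% of all 21631 genes. None had the reverse pattern, beside 0.0324%. A gene-end peak in all 4 libraries was found at 0 of the 9, beside 20.9%. Per library, a gene-end peak was listed for 5 and 6 of the 9 genes in the knockdown libraries and for 1 and 1 in the controls. Over all genes the shares were 39.5% and 45.2% in the knockdown libraries and 22.0% and 38.5% in the controls. The per-library counts of the 9 genes, and the 0 of the 9 in all 4 libraries, depend on the window edge. In control replicate 2 the Tjp3 peak missed the window by 10 bp. The Cgn peaks of both knockdown libraries and control replicate 2 also ended just short of the window. The 9 genes were proposed with results of these lists known, Marveld3 among them, so these counts carry no test and no independent support.

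Markers of other cells were counted in the same way. Of 12 further epithelial genes, a gene-end peak was found for 8 and 9 in the knockdown libraries and for 0 and 1 in the controls, and 9 and 12 against 1 and 5 had a locus peak. The gene-end pattern of Marveld3, F11r and Ildr1 was shown by 7 of the 12, beside 3.8% of all genes. These were Cdh1, Cldn3, Cldn4, Cldn7, Epcam, Esrp1 and Grhl2. Esrp2 also had a gene-end peak in control replicate 2, Ovol1 had one in knockdown replicate 2 only, and Krt8, Krt18 and Ovol2 had none. In the wider locus, Esrp1 had a peak in all 4 libraries and Cldn4 also in control replicate 2. This list, too, was chosen with earlier results of these data known. The part of epithelial cells in the peaks of these 3 genes was not tested. Of 13 genes of the retinal pigment epithelium, an epithelium with tight junctions that borders the retina, 2 and 4 had such a peak in the knockdown libraries and 3 and 3 in the controls, and 9, Rpe65 among them, had none in any library. Photoreceptor genes went with the replicate number, with 1 and 7 of 13 in the knockdown libraries and 1 and 8 in the controls. The counts were 2 and 2 against 1 and 3 of 8 glial genes, 1 and 1 against 0 and 1 of 8 pericyte genes, and 0 and 1 against 1 and 0 of 7 leukocyte genes.

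Over the whole locus, 9 and 9 of the 9 genes had a peak in the knockdown libraries and 3 and 5 in the controls. For 4 of them, Tjp1, Marveld3, F11r and Ildr1, the peaks were in both knockdown libraries and neither control, beside 3.96% of all genes, and for none was it the reverse, beside 0.19%. A locus peak in all 4 libraries was found for 3 (Tjp3, Marveld2 and Cgnl1), beside 32.1%. Over all genes, 54.6% and 61.7% had a locus peak in the knockdown libraries and 35.4% and 53.9% in the controls. The median locus of the 9 genes was 47.7 kb long, against 37.3 kb for all genes, and a longer locus can hold more peaks. The median number of peaks per locus was 2 and 2 in the knockdown libraries and 0 and 1 in the controls for the 9 genes. For all genes it was 1 and 1 in the knockdown libraries and 0 and 1 in the controls. With the 7608 strongest peaks of each library, 2 genes kept the pattern in either window, F11r and Ildr1. With flanks of 50 kb in place of 10 kb, 1 gene kept it, Tjp1. The shares of all genes under these altered settings are not given here, so the counts stand without a comparison.

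Annotated starts were known for 8 of the 9 genes, all but Marveld3. A peak lay over a start in 6 and 7 of the 8 in the knockdown libraries and 1 and 3 in the controls, and over all 17274 genes with an entry in 37.4% and 42.3% against 19.2% and 35.4%. The start was in a peak of both knockdown libraries and neither control at 3 of the 8, Tjp1, F11r and Ildr1, beside 4.18% of all genes. The reverse held at 0, beside 0.0347%, and a start in a peak of all 4 libraries at 1, Cgnl1, beside 17.7%.

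**Figure D3:**
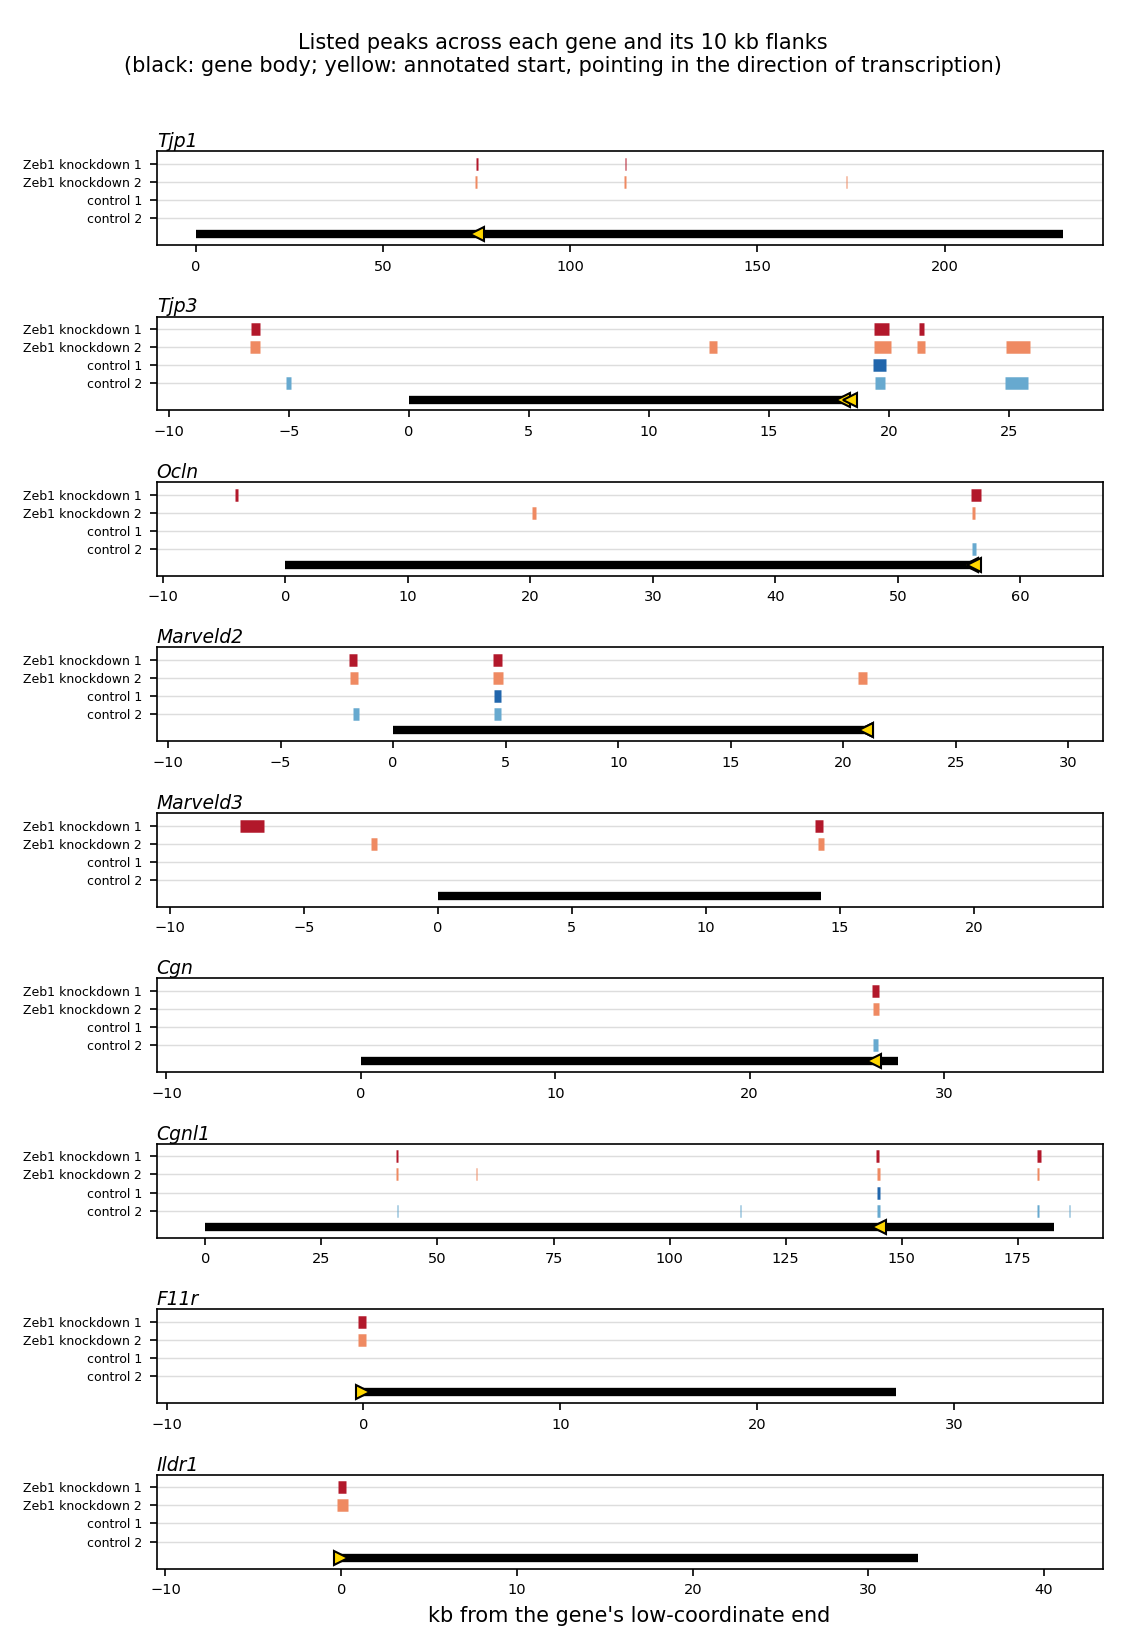
Listed peaks (coloured marks) along each gene (black bar) and its 10 kb flanks, in kb from the low-coordinate end of the gene, with the 4 libraries from top to bottom in each panel and annotated starts in yellow. The Tjp1, Marveld3, F11r and Ildr1 panels have empty control rows, while Tjp3, Marveld2 and Cgnl1 each have a region held by all 4 libraries.

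Of the 27 merged regions in the 9 loci, 7 were listed in both knockdown libraries but no control library, beside 10.1% of the 25263 regions in the genome. Control-only regions numbered 0, beside 0.158%. Another 3 regions were held by all 4 libraries, beside 20.3%, and 5 by all but control replicate 1, beside 16.6%. A further 11 were held by a single library, beside 41.9%, with 2 and 6 of them in the knockdown libraries and 0 and 3 in the controls. Of the 7 regions over an annotated start, 3 were knockdown-only. Of the 17 regions within a gene body, 5 were knockdown-only, and the other 2 knockdown-only regions were those beside Tjp3. The shares of knockdown-only regions by place over the genome are not given here, so these splits have no comparison. The count of 7 was 3 with a −log10 q of at least 3 and 4 with equal list lengths. It was 13 without knockdown replicate 1 and 12 without control replicate 2. The shares of all regions under those settings are not given here.

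Within replicate number 1, the knockdown library alone listed a gene-end peak at 4 genes and the control library alone at 0, beside 18.1% and 0.610% of all genes. For number 2 these counts were 5 and 0, beside 8.58% and 1.82%. Knockdown replicate 1 and control replicate 2 have lists of nearly the same length. Of these, the knockdown library alone listed a gene-end peak at 4 genes (Tjp3, Marveld3, F11r and Ildr1) and the control library alone at 0, beside 5.38% and 4.35% of all genes. Tjp3 enters this count through the 10 bp at the window edge.

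Among other genes of the tight junction, the lists of similar length held the same number at gene ends. The list of 30 further genes holds no claudins, and Cldn3, Cldn4 and Cldn7 were counted above as epithelial genes and Cldn5 as an endothelial gene. Of the 30, 18 and 22 had such a peak at a gene end in the knockdown libraries, against 7 and 18 in the controls. Over all genes the shares were 39.5% and 45.2% against 22.0% and 38.5%. The gene-end peak was in both knockdown libraries and neither control at 3 of the 30, beside 3.8% of all genes. These were Cxadr, an immunoglobulin-type adhesion molecule, Esam, an endothelial adhesion molecule, and Patj, a polarity scaffold. Esam is also on the endothelial list. The count of 3 was 5 without knockdown replicate 1, 11 without control replicate 2, 5 with a −log10 q of at least 3 and 1 with equal list lengths. The shares of all genes under those settings are not given here. Over the whole locus the pattern held for Cxadr alone, beside 3.96% of all genes. Esam had a locus peak in all 4 libraries, and Patj had one in control replicate 1 as well. Of the angulins related to Ildr1, Lsr had gene-end peaks in both knockdown libraries and control replicate 2, and Ildr2 had 1 peak, in knockdown replicate 2. Of the 30, 7 had gene-end peaks in each of the 4 libraries, beside 20.9% of all genes, Afdn, Amot, Amotl2 and Magi1 among them.

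**Figure D4:**
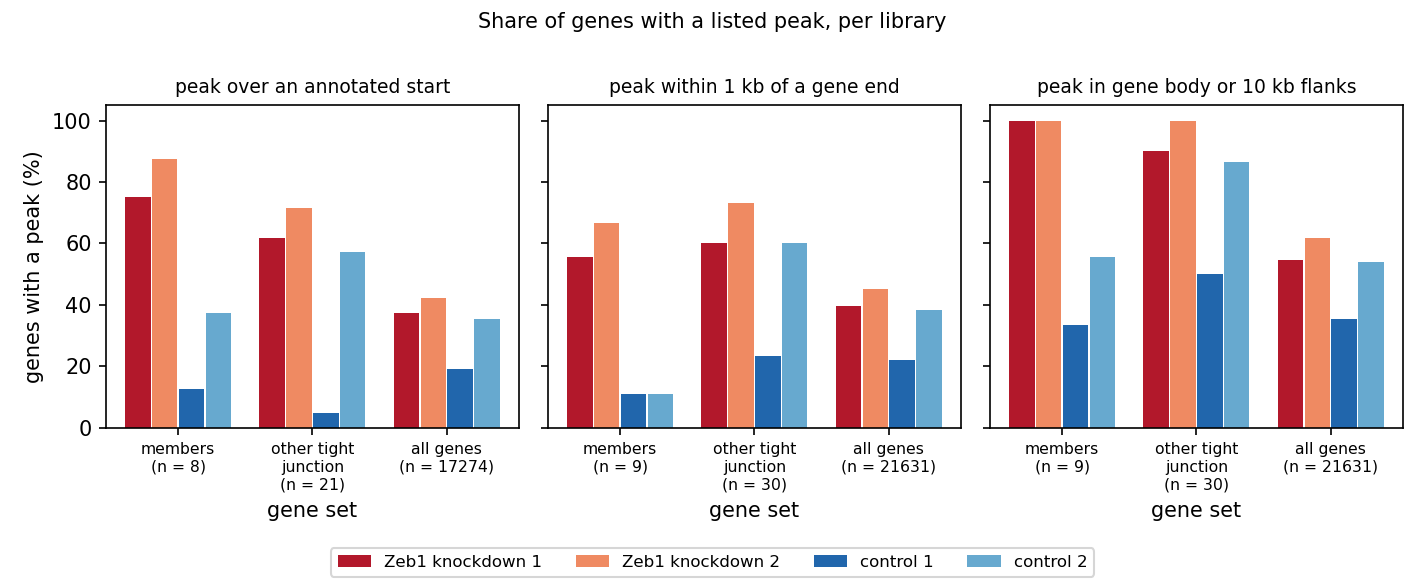
Share of genes with a listed peak (bars from 0, in percent) over an annotated start, within 1 kb of a gene end and in the locus, for the 9 genes, the other tight junction genes and all protein-coding genes, in each library. The 9 genes reach 55.6% and 66.7% at gene ends in the knockdown libraries and 11.1% in each control, while the other tight junction genes have bars of equal height at gene ends, but not in the other windows, for knockdown replicate 1 and control replicate 2.

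In its pattern over the 4 libraries, F11r was matched by Ildr1 and Marveld3, and outside the 9 genes by 1 of the 30 further tight junction genes, Cxadr. The measure was an identical set of gene-end and locus calls, which 443 genes shared, 2.05% of all. The pattern of Ocln was shared by 2177 genes, Arhgef11, Pard3 and Shroom2 among them. That of Cgn was shared by 757, with Amotl1, Clmp and Nectin1, and that of Cgnl1 by 1200, with Magi2 and Vapa. Tjp1 had a pattern seen in 317 genes, Marveld2 in 176 and Tjp3 in 38, none of them on the list.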

How the data were processed

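The authors deposited 1 broad-peak list per library on mm10, 4 in all, without pooling. MACS2 2.1.1, bedtools 2.26.0, SAMtools 1.3, Picard 2.9.2, Bowtie2 2.3.2 and Trimmomatic 0.36 are named in the submitters' processing notes. Their settings, the filter behind the lists and any shift for the transposase are not given in the sources used here. A deposited peak comes with its fold enrichment, a ratio, with a −log10 p and a −log10 q, and a deposited score of 10 times the −log10 q, limited to 1000. Every −log10 q is above 1. Ranking and filtering inside 1 list was their sole use, since a longer or deeper library lists more peaks. Their precision is not known without depth.

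Gene ends came from the RefSeq gene table and starts from its promoter table, both GRCm38.p6. The promoter table matched 8 of the 9 genes by symbol, with 11 entries of 300 bases. An overlap of 1 bp counted as a peak in a window. Peaks that overlapped or touched were merged over the libraries. The background was protein-coding genes on 19 autosomes and X, counted with pandas 2.3.3 on Python 3.11.15, and functions were tested on simulated lists. Groups and replicate numbers came from the sample titles. The peaks per library were compared with an exact permutation test (SciPy 1.17.1), and counts of genes were not tested. Letters were searched on both strands, a palindrome once. They were the E2-box forms CAGGTG and CAGGTA, the grainyhead form AACNGGTT, the AP-1 form TGANTCA and the GC-box form CCGCCC.

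The text names all 9 genes. Of 30 further tight junction genes, a list without claudins, it names those listed in both libraries of 1 group and neither of the other, Lsr and Ildr2, up to 4 with gene-end peaks in all 4 libraries and up to 3 with the pattern of a member, in alphabetical order. A relative that this rule also names is not reported here. The members and lists were chosen with earlier results of these data known. Tried as alternatives were equal list lengths, a −log10 q of 3 or more, each library left out, the midpoint of a peak, windows of 3 kb or around starts, no flanks or flanks of 50 kb, merging within 1 kb and the replicate block. The comparison of the lists of similar length and the count of peaks over the start itself were added after seeing the data.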

Additional observations from a re-analysis of the deposited data

How the results depend on the processing

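Leaving out 1 library at a time, the number of members with the knockdown-only gene-end pattern was 3 to 4 (3 with all libraries). The number with such a locus was 4 to 6 (4 with all). Leaving out a library can only keep or raise such a count of genes, because fewer lists have to meet the pattern. The lower ends of these ranges are therefore no measure of stability. The highest locus count, 6, came without control replicate 2, when Ocln and Cgn joined. Knockdown-only regions in the loci numbered 7 to 13 (7 with all), with 13 without knockdown replicate 1 and 12 without control replicate 2, and further tight junction genes 3 to 11 (3 with all), with 5 without knockdown replicate 1 and 11 without control replicate 2. With a −log10 q of at least 3, these counts were 3 regions and 5 further tight junction genes. With equal list lengths the counts were 2 loci, 4 regions and 1 further tight junction gene, and with flanks of 50 kb 1 locus. None of the counts under altered settings has its share over all genes or regions beside it. The causes were not tested, apart from the fewer peaks or wider windows that these settings bring. F11r and Ildr1 had the gene-end pattern in every setting listed here for gene ends, and Marveld3 lost it with a −log10 q of at least 3 and with equal list lengths.

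In 161 results for single genes under these settings, the difference between the groups in the share of libraries with a peak kept its value in 129, moved in 32 and reversed in 0. Where both knockdown libraries and neither control had a peak, leaving out a library or dropping weaker peaks could not reverse it. A difference of 0 has no sign to reverse. The absence of reversals was therefore largely set by the counting and is no measure of stability. The knockdown lists were longer by 6148 peaks on average, with an exact permutation p of 0.333, and with the replicate number as a block the exact p was 0.5, the smallest that 2 pairs can give. Same-numbered libraries deviated together by a correlation of 0.0315 over 25263 regions, so the numbers are treated as names only. Depth is unknown, which limits every statement on an absent peak.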

Other observations

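Over all genes with a promoter entry, the share that held CAGGTG or CAGGTA on either strand varied with the pattern of peaks at the start. It was 40.4% for the 690 genes with a peak within 1 kb of a start in both knockdown libraries and neither control, the pattern of Tjp1, F11r and Ildr1. It was 22.0% for the 3904 genes with such a peak in all 4 libraries, 34.7% for the 8461 genes with none, and 31.2% over all 17274. The GC-box letters CCGCCC also differed between these genes, at 70.9%, 78.6%, 24.9% and 49.8% in the same order. These shares are descriptions of promoter letters, with no test, and base composition differs between the genes.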
